A study of Mus musculus with 22 samples.

Results

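The immunoglobulin constant genes Ighm, Ighd, Igha, Ighg1, Ighg2b, Ighg2c, Igkc, Iglc2 and Iglc3 and the joining chain gene Jchain were followed through circulating cells, whole organs and unsorted blood of the mouse. They are 10 of the 31053 genes counted in every library and are given by name. An antibody is built from paired heavy and light chains, and the constant part of the heavy chain sets its class. Naive B cells splice a single transcript into IgM and IgD, class switching then replaces the μ gene (Ighm) with a γ, α or ε gene, and each B cell keeps either a κ or a λ light chain. Plasma cells, the antibody-secreting end stage of the lineage, carry very large amounts of immunoglobulin mRNA, and the J chain links IgM pentamers and IgA dimers for secretion across mucosal epithelium.

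The study asked how loss of NALCN, a sodium leak channel, affects the shedding of cells from organs into the blood. Single cells of mice without tumours were profiled with droplet 3′ sequencing that counts unique molecular identifiers (UMIs), each standing for 1 captured mRNA molecule. The ntCZC libraries (non-tumour circulating ZsGreen+ cells) hold cells sorted from peripheral blood for the lineage label ZsGreen, and numbered 2 for Nalcn wt, 4 for Nalcn-het and 4 for Nalcn-null mice aged 551 to 649 days. The tissue libraries hold hashtagged suspensions of kidney, liver, lung and stomach pooled with epididymis in males or uterus in females, and numbered 5 wt, 2 het and 2 null for mice aged 551 to 654 days. PBMC is 1 library of peripheral blood mononuclear cells from a wt male aged 120 days. A further 2 tissue libraries carry labels that contradict each other on genotype and belong to no group here, and tissue null replicate 3 is null by its strain label alone, since its title names no genotype. Every mouse, controls included, carried Prom1-CreERT2 and Rosa26ZSG. Cre acts after tamoxifen and only where Prom1 is or was expressed, so that ZsGreen and the conditional Nalcn alleles are recombined in descendants of Prom1-expressing cells. From stained bone marrow, the study reported that this Cre line does not recombine blood-forming cells there. Whether any B cell of these libraries was recombined was not tested. The sort is by fluorescence and the cells in the gate need not be of 1 type. Organ tags were not analysed here, and organs within a tissue pool cannot be told apart. The PBMC mouse was far younger than all others, which leaves age and preparation confounded for that library.

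Depth differed widely. The ntCZC libraries held 50 to 621 barcodes and 161541 to 2600526 UMIs, the tissue libraries with a group 1856 to 27857 barcodes and 8571019 to 139793927 UMIs, and the PBMC library 752 barcodes and 1422144 UMIs. Levels are given as CPM, the UMI count of a gene scaled to a fixed library total, and summed libraries cannot tell fewer cells of a type from less RNA per cell. Of 179929 deposited barcodes, 95843 had 200 or more genes and no more than 25% of UMIs from mitochondrial genes, 15088 of these were called doublets, and 80755 were clustered into 40 clusters with the immunoglobulin genes and Jchain kept out of the variable genes. Nalcn had 0 UMIs in each ntCZC and PBMC library and 0 to 18 UMIs in the tissue libraries, too few to check the genotype labels. The 8 libraries labelled female had 384 to 2037 CPM of Xist and the 14 labelled male at most 0.316 CPM. Tissue null replicate 3, labelled female, also had 31.2 CPM over 4 Y-linked genes, against 43.3 to 219 CPM in the males, and the null versus wt results below are also given without it. Of 175975 barcode sequences, 3900 (2.22%) occurred in more than 1 library. All 25 replicate pairs differed by more than counting noise (lowest chi-square per degree of freedom 4.11). The labels do not say that replicates are separate animals, so p-values measure the spread between these libraries.

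A 3′ assay reads the end of a transcript, and several of these genes are close copies of each other. The last 120 coding bases of the paralogous pairs that matter most here are printed from the GENCODE vM21 transcripts (GRCm38), 5′ to 3′, because the results below depend on telling them apart. Capitals mark the bases at which the members of a pair differ. Iglc2 lies at chr16:19198539-19198658 and Iglc3 at chr16:19065368-19065487, both on the minus strand, and 2 of the 120 bases differ.
Iglc2-202: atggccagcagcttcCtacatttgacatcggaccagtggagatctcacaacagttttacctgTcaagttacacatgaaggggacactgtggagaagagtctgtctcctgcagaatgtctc
Iglc3-201: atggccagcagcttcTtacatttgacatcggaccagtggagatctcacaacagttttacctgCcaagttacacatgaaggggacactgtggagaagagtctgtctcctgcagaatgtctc
Ighg2b lies at chr12:113306392-113306511 and Ighg2c at chr12:113287392-113287511, again on the minus strand, and 37 of the 120 bases differ.
Ighg2b-201: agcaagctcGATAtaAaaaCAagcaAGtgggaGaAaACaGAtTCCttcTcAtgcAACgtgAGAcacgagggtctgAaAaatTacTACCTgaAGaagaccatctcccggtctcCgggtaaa
Ighg2c-202: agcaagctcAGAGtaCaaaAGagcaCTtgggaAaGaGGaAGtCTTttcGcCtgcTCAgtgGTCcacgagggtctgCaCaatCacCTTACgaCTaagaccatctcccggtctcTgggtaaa
Over their whole coding parts the pairs were 96.5% and 85.9% identical, while Iglc1 and Iglc2 were 73.2% identical. The split of reads between Iglc2 and Iglc3 is therefore uncertain, and every value of either gene alone carries that limit. The heavy chain genes form 1 array on the minus strand of chromosome 12, from Ighm (113418558 to 113422730) through Ighd (113406604 to 113416324), Ighg1 (113325240 to 113330523), Ighg2b (113302965 to 113307933) and Ighg2c (113285325 to 113288932) to Igha (113254830 to 113260236). Igkc lies on chromosome 6 (70726435 to 70726966, plus strand) and Jchain on chromosome 5 (88519809 to 88527891, minus strand).

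B cell-like cells, named from markers that include Cd79a, Cd79b, Ms4a1, Cd22, Pax5, Ebf1, Fcmr, Blnk and Bank1, were found in every library. They numbered 276 of 2109 clustered ntCZC barcodes (2.04% to 49.7% by library, median 14.6%), 7358 of 60905 tissue barcodes (6.56% to 25.8%, median 9.56%) and 247 of 679 PBMC barcodes. Plasma cell-like cells, named from Mzb1, Derl3, Sdc1, Tnfrsf17, Prdm1, Xbp1 and 4 other genes, numbered 704 in the tissue libraries, between 1 and 419 a library, and 1 in PBMC. Barcodes called doublets are not in these numbers. In wt replicate 1, the tissue library with 1 such cell, all 13 barcodes with at least 20 Jchain UMIs had been called doublets. The ntCZC libraries held 0 plasma cell-like cells of 2109, which allows a share of up to 0.142%. In the plasma cell-like cluster Igkc reached 286698 CPM, Ighg2c 38434, Igha 27629, Jchain 24849 and Ighm 24023, while Ighd stood at 15.6 CPM. Of the 704 tissue cells there, 419 came from wt replicate 4, and over the 7 tissue libraries with at least 10 such cells the medians were 40526 CPM for Ighm, 23767 for Igha and 6837 for Ighg2c. In the larger B cell-like cluster Ighm stood at 2982 CPM, Ighd at 489 and Jchain at 196. Ighd was the only 1 of the 10 members that was lower in the plasma cell-like cluster than in both B cell-like clusters.

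**Figure D1:**
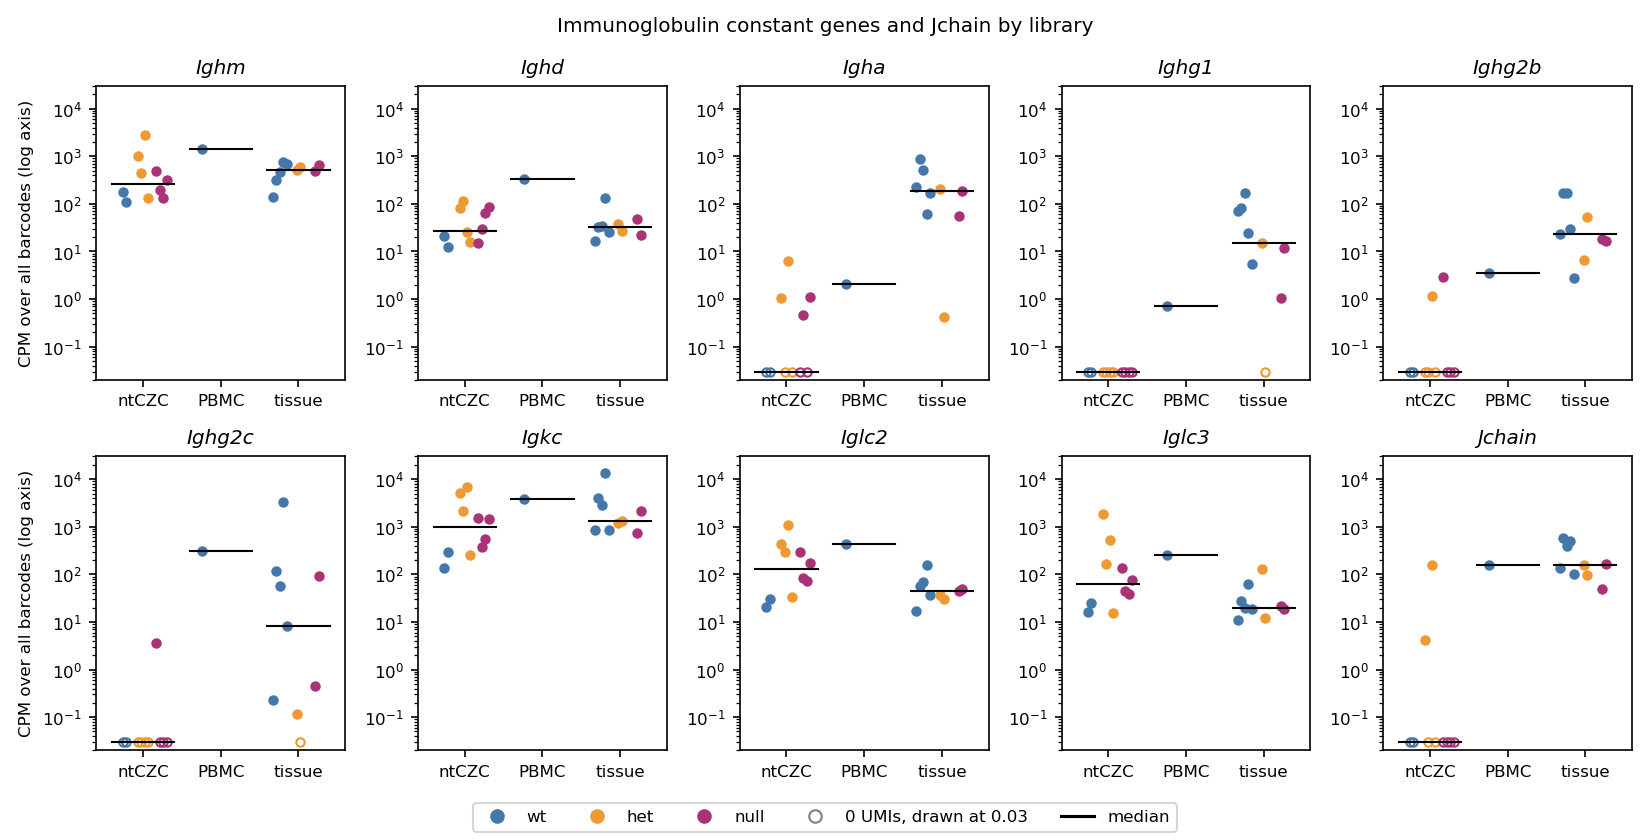
Level of each of the 10 genes over all deposited barcodes of a library, in CPM on a log axis, with 1 point a library for ntCZC, tissue and PBMC coloured by genotype, libraries at 0 drawn at 0.03 and the bar at the median. The switched heavy chain genes and Jchain sit at or near 0 in most ntCZC libraries, while the points of Ighm, Ighd and Igkc overlap between ntCZC and tissue over most of their range.

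Over all barcodes, the μ and δ heavy chain genes were not called between circulating ZsGreen+ cells and tissue, the switched heavy chain genes and Jchain were at 0 in most circulating libraries, and the λ genes Iglc2 and Iglc3 were higher there. This contrast of 10 ntCZC with 9 tissue libraries asks what antibody-class makeup travelled with the sorted cells. In the quasi-likelihood test of edgeR, with sex as a covariate and p-values adjusted over 11905 genes (Benjamini-Hochberg), 2 of the 10 members were called higher and 5 lower in ntCZC. Of all genes tested, 27.5% were called higher and 38.5% lower, so that a member called in either direction is not unusual by itself. With another scaling (RLE) the split of all calls moved from 3274 higher and 4586 lower to 2322 higher and 5580 lower, and the median log2 difference of all genes moved from -0.13 to -0.37. The same number of members, 7, was called under both. The CPM ranges of ntCZC and tissue overlapped for all 10 members, against 0.638% of genes that lay wholly higher and 17.4% wholly lower in ntCZC.

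Ighm encodes the μ chain of IgM, the first class a B cell makes. Its level in ntCZC ran from 111 to 2805 CPM (median 258) and in tissue from 142 to 763 CPM (median 507). The ntCZC het replicates 3 (2805 CPM) and 1 (1019 CPM) lay above every tissue library and the rest within or just under the tissue range. The fitted log2 difference, ntCZC over tissue, was -0.10 ± 0.47 (SE, adjusted p = 0.873 by edgeR's quasi-likelihood test). Ighd, whose δ chain marks naive B cells, ran from 12.4 to 116 CPM (median 27.3) in ntCZC and from 16.6 to 134 CPM (median 32.1) in tissue, a log2 difference of 0.10 ± 0.41 (adjusted p = 0.855, edgeR). Under RLE scaling the difference of Ighm was -0.31 and that of Ighd turned to -0.12, and neither was called. In PBMC, Ighm stood at 1450 CPM, above every library but ntCZC het replicate 3, and Ighd at 338 CPM, above all of them.

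The switched heavy chain genes were nearly undetected in the circulating cells. Igha, the α chain of mucosal IgA, had 15 UMIs in all 10 ntCZC libraries together (0 to 6.27 CPM, 6 libraries at 0), and 11 of the 15 were in het replicate 3. In tissue it ranged from 0.417 to 869 CPM with a median of 187 CPM, the lowest in het replicate 2 and the highest in wt replicate 2. Ighg1 had 0 UMIs in all 10 ntCZC libraries against 0 to 171 CPM (median 14.8) in tissue. Over all 13389093 ntCZC UMIs pooled, 3 counts of Ighg1 would be 0.224 CPM. In single ntCZC libraries 3 counts are 1.15 to 18.6 CPM, which spans the tissue median, so these counts set no bound on a fold difference. Ighg2b had 6 ntCZC UMIs (0 to 2.85 CPM, 8 libraries at 0) and 2.80 to 173 CPM (median 23.4) in tissue. Ighg2c had 5 ntCZC UMIs, all in null replicate 1, and 0 to 3371 CPM (median 8.40) in tissue. Tissue wt replicate 4 held that highest value and the next tissue library reached 119 CPM. The libraries of the 2 kinds thus met only at the low end of the tissue range.

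The fitted log2 differences, ntCZC over tissue, were -7.81 ± 1.10 for Igha, -6.82 ± 1.07 for Ighg2b, -10.11 ± 2.20 for Ighg2c and -13.09 ± 3.42 for Ighg1 in edgeR. These 4 genes and Jchain passed the filter on low counts through the tissue libraries only, since none of them passed it in the fit of the ntCZC libraries alone, so their calls carry no weight and their differences are given without a p. The value for Ighg1 rests on the fit's prior and is no bound. In PBMC, Igha stood at 2.11 CPM, Ighg1 at 0.703, Ighg2b at 3.52 and Ighg2c at 309 CPM, and all 440 Ighg2c UMIs came from 1 barcode. The 2 heavy chain genes outside the list were low in both kinds: Ighg3 ran from 0 to 3.57 CPM in ntCZC (8 of 10 libraries at 0) and from 0.0250 to 60.9 CPM in tissue (median 0.900), and Ighe from 0 to 2.85 CPM (9 of 10 at 0) and from 0 to 3.68 CPM (median 0.117). Neither passed the filter in this fit.

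The light chain genes were abundant in every library. Igkc, the κ constant gene used by most mouse B cells, ran from 133 to 6979 CPM (median 1005) in ntCZC and from 757 to 13693 CPM (median 1313) in tissue, and its log2 difference was -0.69 ± 0.64 (adjusted p = 0.350, edgeR). Iglc2, a λ constant gene, ran from 20.2 to 1093 CPM (median 128) in ntCZC and from 16.9 to 155 CPM (median 44.3) in tissue. Iglc3 ran from 15.4 to 1863 CPM (median 61.5) and from 11.1 to 128 CPM (median 19.9). Most ntCZC libraries lay at or above the tissue median for both, with a wide overlap. The log2 differences were 1.97 ± 0.55 for Iglc2 (adjusted p = 0.00386) and 3.00 ± 0.84 for Iglc3 (adjusted p = 0.00376) by edgeR's quasi-likelihood test. Both calls depended on the model: with genotype as a covariate they were 1.47 (adjusted p = 0.0693) and 1.88 (adjusted p = 0.0695), and without ntCZC het replicate 1 the difference of Iglc3 was 1.23 (adjusted p = 0.124). Without that library the difference of Igkc was -1.44 and passed the threshold. Iglc1, another λ constant gene, stood at a median of 48.5 CPM in ntCZC and 55.9 CPM in tissue (log2 difference 0.38, adjusted p = 0.612).

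Jchain, needed to polymerise IgM and IgA, was at 0 in 8 of 10 ntCZC libraries. Of its 283 ntCZC UMIs, 279 lay in het replicate 3 (159 CPM) and 4 in het replicate 1. The tissue libraries ran from 49.0 to 580 CPM with a median of 156 CPM, so that het replicate 3 sat at the tissue median and the other 9 ntCZC libraries below every tissue library. The log2 difference was -5.21 ± 1.17. Without ntCZC het replicate 3 and tissue wt replicate 4 together, the differences of Iglc2 and Iglc3 were 1.81 and 2.92 and both were called. PBMC held 225 Jchain UMIs (158 CPM), all in the barcode that held its Ighg2c.

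Within B cell-like cells, the light chain genes were higher in circulating than in tissue B cell-like cells, Ighm and Ighd were not called, and the switched heavy chain genes and Jchain were at 0 in most circulating libraries. The test summed UMIs per library over libraries with at least 10 such cells, which left 8 ntCZC libraries (270 cells) and 9 tissue libraries (7358 cells). The median UMI count per cell was 3093 in ntCZC, 1347 in tissue and 1632 in PBMC. All 276 ntCZC and all 247 PBMC B cell-like cells lay in the larger B cell-like cluster, which held 81.6% of the tissue cells, and the other 18.4% lay in the smaller cluster. By edgeR's quasi-likelihood test 7 of the 9 members tested were called, 3 higher and 4 lower, where 16.5% of 6010 genes were called higher and 21.6% lower. The 4 lower ones (Igha, Ighg2b, Ighg2c and Jchain) were at 0 in 5, 6, 7 and 6 of the 8 ntCZC libraries and passed the filter through tissue, so that their calls carry no weight and their differences are given without a p. Doublets were searched for in the tissue libraries only, and with doublets kept the 3 light chain genes were called as before. Ighg1 did not pass the filter. Outside the list, Ighg3 passed it here and was called lower (-2.18 ± 0.75). It was at 0 in 6 of the 8 ntCZC libraries, so that its difference is also given without a p.

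Igkc stood at 10031 to 21144 CPM (median 11477) in ntCZC B cell-like cells and at 3333 to 11797 CPM (median 6620) in tissue, a log2 difference of 0.93 ± 0.24 (adjusted p = 0.00395, edgeR). Iglc2 stood at 1371 to 2506 CPM (median 1826) against 364 to 770 CPM (median 516), a log2 difference of 1.68 ± 0.18 (adjusted p = 1.20e-06, edgeR). Iglc3 stood at 616 to 7600 CPM (median 1034) against 166 to 397 CPM (median 309), a log2 difference of 2.57 ± 0.42 (adjusted p = 9.23e-05, edgeR). Every ntCZC library lay above every tissue library for Iglc2 and for Iglc3, against 1.75% of genes with ranges that lay wholly higher in ntCZC. The highest Iglc3 value was that of ntCZC het replicate 1, and without it the difference was 1.59 and still called by edgeR. DESeq2 gave a difference of 2.50 for Iglc3 without an adjusted p, so that it was not called there, while Igkc and Iglc2 were. PBMC B cell-like cells held 10072 CPM of Igkc, 1573 CPM of Iglc2 and 914 CPM of Iglc3, within the ntCZC range for all 3. Iglc1 differed by 0.89 ± 0.33 (adjusted p = 0.0351, edgeR). The receptor subunit genes Cd79a and Cd79b, which sit with the antibody in the B cell receptor, moved the same way and are given with the receptor list below.

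Ighm stood at 2373 to 4628 CPM (median 3254) in ntCZC B cell-like cells and at 1468 to 10339 CPM (median 3247) in tissue, where het replicate 2 (4739 CPM) and wt replicate 5 (19 such cells) exceeded the ntCZC range (log2 difference -0.20 ± 0.28, adjusted p = 0.616, edgeR). Ighd stood at 41.4 to 1555 CPM (median 680) and at 227 to 730 CPM (median 444), with 0.19 ± 0.37 (adjusted p = 0.732, edgeR). The ntCZC libraries spread far more than the tissue libraries for Ighd. Igha (0 to 10.6 CPM against 2.11 to 1471 CPM), Ighg2b (0 to 21.3 against 4.21 to 678) and Ighg2c (0 to 26.7 against 0 to 1579) had log2 differences of -5.83 ± 1.19, -5.28 ± 1.20 and -6.79 ± 1.35. That of Ighg2c was -3.63 and not called with genotype as a covariate, and the gene was not tested when ntCZC het replicate 3 or any tissue library but wt replicate 5 was left out. Jchain was at 0 in 6 of the 8 ntCZC libraries (highest 267 CPM) and at 17.0 to 930 CPM in tissue, with a log2 difference of -2.84 ± 0.74. When immunoglobulin genes entered the clustering, the difference of Jchain was -1.22 and not called. Among the 8 ntCZC libraries, het replicate 3 again held nearly all Jchain.

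**Figure D2:**
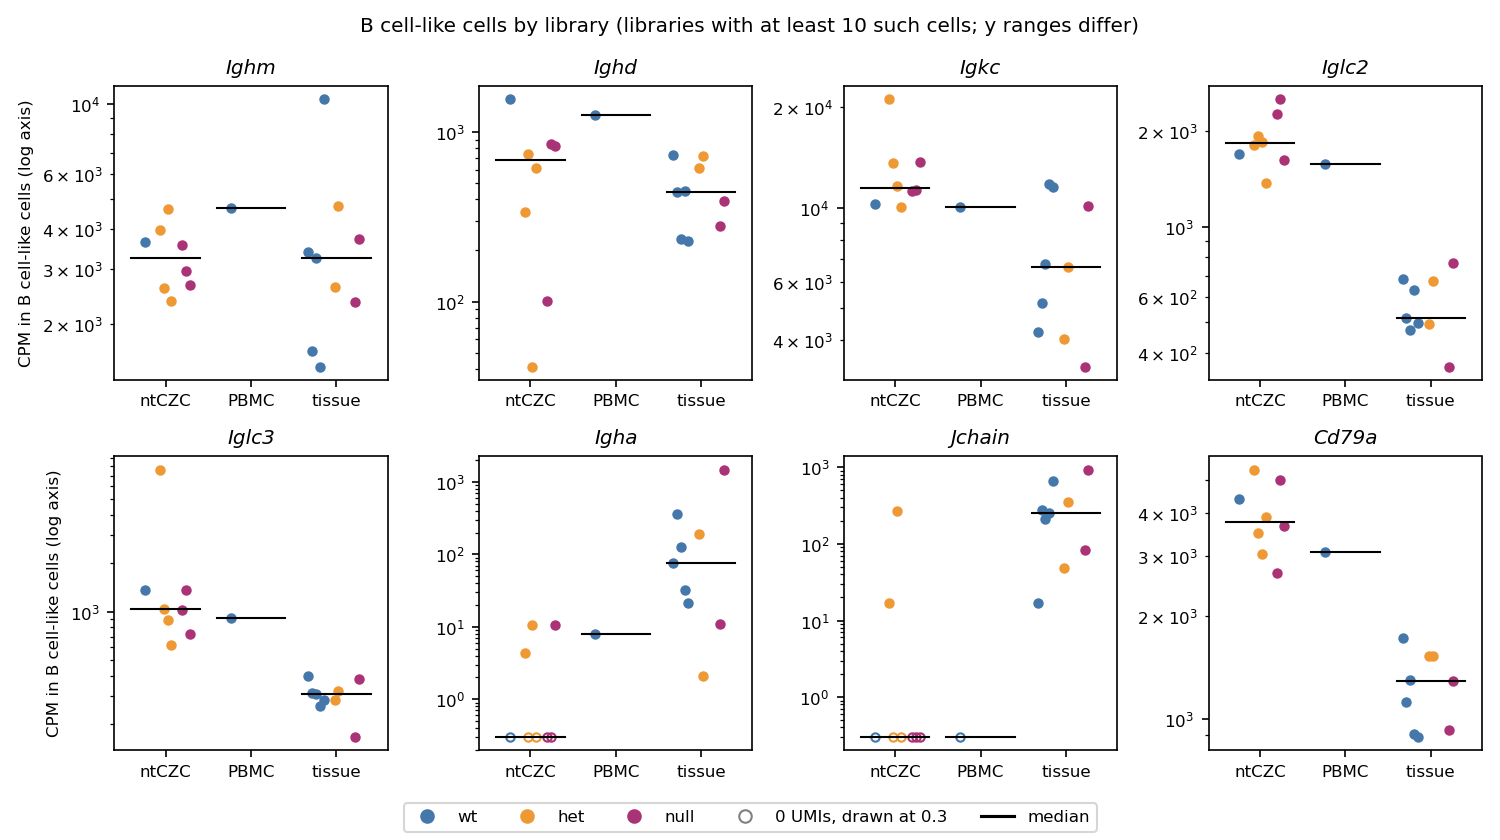
Level of 7 of the members and of Cd79a in B cell-like cells summed per library, in CPM on log axes of differing range, for libraries with at least 10 such cells, coloured by genotype, with libraries at 0 drawn at 0.3 and the bar at the median. All ntCZC points for Iglc2 and Iglc3 lie above all tissue points, and the PBMC point lies among those of ntCZC.

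The balance of δ to μ transcripts split the circulating B cell-like cells by library. In 6 of the 8 ntCZC libraries with at least 10 such cells, 61.3% to 88.3% of cells had an Ighd UMI. The share was 50% in null replicate 1 and 22.5% in het replicate 3, where 43 Ighd UMIs stood beside 4807 Ighm UMIs (0.00895 Ighd per Ighm, against 0.0284 to 0.425 in the other 7). In tissue the share ran from 19.9% to 71.5% and the ratio from 0.0219 to 0.305, and PBMC had 77.3% and 0.269. A Jchain UMI was found in 44 of 80 cells (55%) of ntCZC het replicate 3, in 2 of 32 (6.25%) of het replicate 1 and in 0 cells of the other ntCZC libraries. In tissue 0.796% to 21.1% of B cell-like cells had one, most in wt replicate 2 (21.1%) and wt replicate 4 (18.2%). The B cell-like cells of het replicate 3 thus had the lowest Ighd per Ighm and the highest share with Jchain. They were also the deepest, with a median of 9813 UMIs against 748 to 4066 by tissue library. Null replicate 1, with the next lowest Ighd per Ighm of the 8 ntCZC libraries, had 8495.5, and the others of the 8 had 2155 to 3281. The Jchain level of het replicate 3, 267 CPM, was close to the tissue median of 252 CPM.

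Per barcode, the heavy chain gene with the most UMIs was called as the dominant class in clustered barcodes with a Cd79a or Jchain UMI and at least 2 UMIs of that gene. In ntCZC, 283 barcodes were positive and 254 had a call, of which 235 were Ighm and 19 Ighd. No switched class was dominant in any of the 254, while 11 barcodes were tied. In PBMC 207 of 236 positive barcodes had a call, 197 Ighm, 8 Ighd, 1 Ighg2b and 1 Ighg2c. In tissue 6696 of 12690 had a call, 4258 Ighm, 577 Ighd, 578 Igha, 51 Ighg1, 187 Ighg2b and 1045 Ighg2c. Of the Ighg2c calls, 1014 were in wt replicate 4. Only 45.7% of the tissue positives were B cell-like and 5.45% plasma cell-like, the other 48.8% lying in other clusters.

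The share of called barcodes with Ighm or Ighd dominant was 100% in each of the 8 ntCZC libraries with at least 10 calls and averaged 84.9% ± 15.3 (SD, n = 9) in tissue. By library the tissue shares were 96.6%, 69.7%, 76.2%, 54.3% and 92.9% in wt replicates 1 to 5, 94.7% and 99.2% in het replicates 1 and 2, and 95.9% and 84.3% in null replicates 2 and 3. All 9 lay below all 8 ntCZC libraries. The difference of 15.1 percentage points had p = 0.00189 in a two-sided exact permutation test over libraries (smallest possible 4.11e-05). The share restates the near absence of switched gene UMIs in ntCZC given above, so this p is not separate evidence for it. The difference was 12.7 points with Cd79a-positive barcodes only and 11.3 points without tissue wt replicate 4. It was 9.24 points (exact permutation p = 0.00769, n = 7 and 9) when only B cell-like barcodes were counted, where the highest tissue library also reached 100%. Within tissue B cell-like cells, 3063 of 4108 calls were Ighm, 429 Ighd, 121 Ighg2b, 91 Igha, 21 Ighg1 and 383 Ighg2c, of which 380 in wt replicate 4. The 684 calls in tissue plasma cell-like cells were 412 Ighg2c, 133 Igha, 95 Ighm, 30 Ighg2b and 14 Ighg1, and 0 were Ighd. Of these, 392 of the Ighg2c and 7 of the Igha calls were in wt replicate 4.

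Barcodes rich in Jchain were classed in the same way. At a minimum of 20 Jchain UMIs, 855 of all deposited barcodes qualified, 801 of them in tissue libraries with a group, 50 in the tissue libraries without one, 3 in ntCZC and 1 in PBMC. Among the 801, 354 had Ighg2c as the dominant heavy gene, 236 Igha, 140 Ighm, 50 Ighg2b, 19 Ighg1 and 0 Ighd, with no single dominant gene in 2. Immunoglobulin genes took a median of 41.4% of their UMIs (1.14% to 74.7%). The dominant heavy gene held over 95% of heavy chain UMIs in 777 of 799 (97.2%), and Igkc over 95% of Igkc, Iglc2 and Iglc3 UMIs together (Iglc1 not counted) in 778 of 801 (97.1%). Most Jchain-rich barcodes therefore read as 1 heavy class, with Igkc far above Iglc2 and Iglc3. Of the 801, 521 were plasma cell-like, 26 B cell-like, 75 in other clusters, 105 called doublets and 74 outside the filter.

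Tissue libraries differed in the class that led. In wt replicate 2, 138 of 232 Jchain-rich barcodes were Igha. In wt replicate 4, 326 of 356 were Ighg2c, and without that library the tissue numbers were 231 Igha, 118 Ighm, 49 Ighg2b, 28 Ighg2c and 18 Ighg1 of 445. Ighm led in null replicate 2 (16 of 20) and het replicate 2 (10 of 11), and Igha in wt replicate 3 (33 of 65), het replicate 1 (20 of 37) and wt replicate 1 (9 of 13, all 13 called doublets). Null replicate 3 held 27 Ighm and 26 Igha of 64. The 3 ntCZC barcodes were all from het replicate 3 and B cell-like. They held 84 to 283 Ighm UMIs and 20 to 28 Jchain UMIs, and immunoglobulin genes took 2.06% to 3.07% of their UMIs, under the median of the tissue barcodes. The 1 PBMC barcode held 440 Ighg2c and 225 Jchain UMIs, with 21.9% of its UMIs from immunoglobulin genes.

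**Figure D3:**
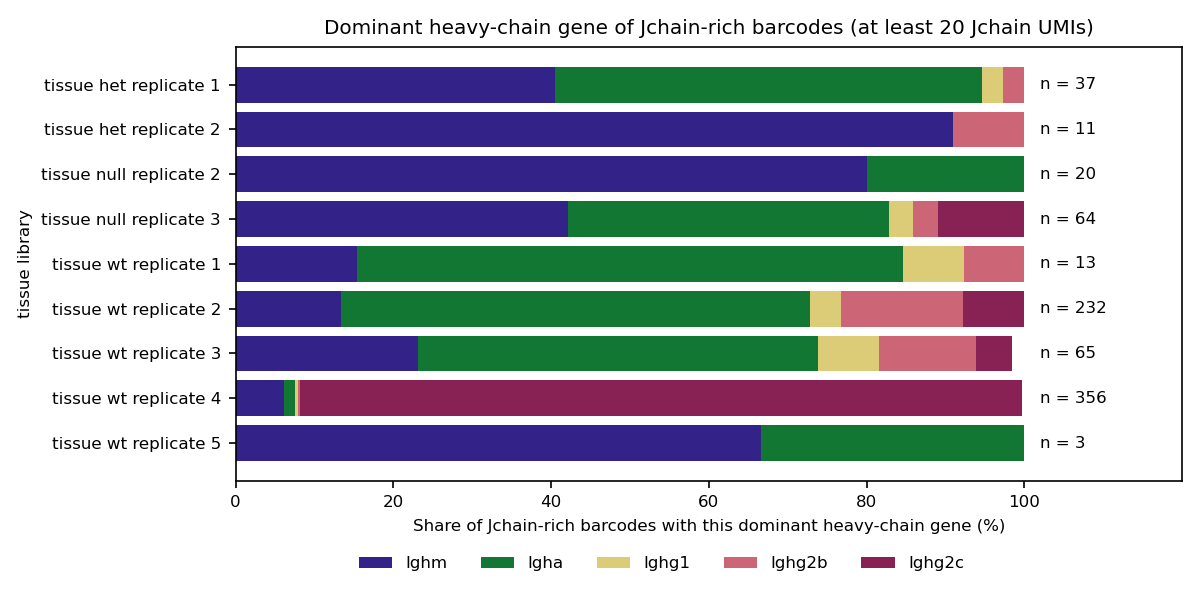
Percent of Jchain-rich barcodes (at least 20 Jchain UMIs) by dominant heavy chain gene, 1 stacked horizontal bar for each tissue library with the number of barcodes (n) beside it, the part short of 100 being barcodes without a single dominant gene. Tissue wt replicate 4 is mostly Ighg2c (326 of 356), wt replicate 2 mainly Igha (138 of 232) and null replicate 2 mainly Ighm (16 of 20).

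Variable gene segments, which each B cell clone fixes once, were counted too, although a 3′ assay captures few of their UMIs. In tissue wt replicate 4, Igkv3-10 was the dominant κ segment in 188 of 225 callable Ighg2c plasma cell-like cells (83.6%) and Ighv1-12 the dominant heavy segment in 149 of 149, of 394 such cells. Over all plasma cell-like cells of that library the shares were 79.2% and 96.2%. In the other tissue libraries with a group and callable cells the leading κ segment took 8.55% to 30% of callable cells, and wt replicate 2 showed 44 κ and 38 heavy segments. The λ segment Iglv1 also had 2128 UMIs in 325 of the 419 plasma cell-like cells of wt replicate 4, against 1129 UMIs of Igkv3-10 in 292, and Iglv1 led among λ segments in the other libraries with a group too (85% to 100% of cells with a λ segment call). In ntCZC het replicate 3, Igkv1-117 was dominant in 24 of 24 callable B cell-like cells, with 93 UMIs in 44 of the 80 cells. Only 2 of these cells had a heavy segment call, and the segments differed (Ighv1-55 in 1 and Ighv8-11 in 1). Counted without the minimum for a call, Ighv8-11 had 11 UMIs in 10 of the 80 cells and Ighv1-55 had 3 UMIs in 2. The calls are too few to say whether the cells share a heavy segment. In the other ntCZC libraries at most 4 cells a library had a κ segment call. So tissue wt replicate 4, the library with the most Ighg2c, had 1 leading segment among κ segments. The same held for ntCZC het replicate 3, which had the most Jchain of the ntCZC libraries only. The other ntCZC libraries had too few κ calls to show whether they had one.

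The light chain type per barcode was κ in most cells of every library. In ntCZC 254 of 270 called barcodes were κ-dominant and 16 λ-dominant, in PBMC 219 and 4 of 223, and in tissue 8825 and 290 of 9115. The λ-dominant share averaged 7.98% ± 6.43 (SD, n = 8) over ntCZC libraries (0% to 18.2%) and 5.28% ± 2.43 (SD, n = 9) over tissue libraries (0.764% to 8.30%). The ranges overlapped, and the difference of 2.69 percentage points had p = 0.266 in a two-sided exact permutation test. With Iglc1 counted as a λ gene it was 1.21 points (exact permutation p = 0.651), since the tissue mean was then 7.34%. The lowest tissue share was that of wt replicate 4, and ntCZC het replicate 3 had 0 λ-dominant of 77 called barcodes (95% exact upper bound 4.68%). Among tissue plasma cell-like cells 683 were κ-dominant and 4 λ-dominant. A few λ cells can carry a library's λ counts: the 35 λ-dominant barcodes of tissue het replicate 1 held 4945 Iglc3 UMIs beside 290 of Iglc2, and the 13 of tissue wt replicate 3 held 966 Iglc2 and 21 Iglc3 UMIs.

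The higher λ counts of circulating B cell-like cells lay mostly in κ-dominant barcodes. Among barcodes with at least 10 light chain UMIs, 243 of 250 in ntCZC were κ-dominant, and 235 of these (96.7%) also held an Iglc2 or Iglc3 UMI, at a median of 17.6% of light chain UMIs (quartiles 11.1% and 23.7%). In PBMC 165 of 182 (90.7%) did, at a median of 18.2%. In tissue B cell-like cells 2054 of 2525 (81.3%) did, at a median of 10.5% (quartiles 4.35% and 20%), and in tissue plasma cell-like cells 619 of 687 (90.1%), at a median of 0.405%. A λ share between 10% and 90% was found in 78.0%, 74.5%, 52.4% and 1.16% of barcodes in that order. By library the median ran from 11.1% to 28.4% in ntCZC libraries with at least 10 such barcodes and from 9.09% to 16.7% in tissue, and the ranges overlap. Iglc2 was detected in 88.8% of ntCZC B cell-like cells and in 0.152% of ntCZC monocyte-like cells (median 4582 UMIs), and in 42.7% of tissue B cell-like against 2.53% of tissue T cell-like cells. Thinned to 1000 UMIs a cell, the B cell-like shares were 70.4% in ntCZC (260 of 276 cells kept), 35.2% in tissue (5101 of 7358) and 69.7% in PBMC.

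Outside the B lineage, Ighm and Igkc did not run in parallel. In ntCZC monocyte-like cells (n = 1312) Ighm was detected in 33.9% of cells but Igkc in 0.152%, under the 3-count floor of 0.229%. Their 49 Igkc UMIs, held by very few cells, gave 0.0723 Igkc UMIs per Ighm UMI against 3.23 in ntCZC B cell-like cells. PBMC T cell-like cells showed the same, with Ighm in 34.2% and Igkc in 1.15% of 260 cells and 0.0227 Igkc per Ighm against 2.15. Thinned to 1000 UMIs, Ighm remained in 9.45% and 21.9% of these cells. Over the pooled tissue libraries, Igkc was detected in 43.9% of T cell-like, 46.7% of macrophage-like, 40.0% of monocyte-like and 35.9% of endothelial-like cells, and Ighm in 19.8%, 23.6%, 22.4% and 10.7%. This order did not hold in each library: Igkc was detected in more cells than Ighm in 4 of 8 tissue libraries for T cell-like, 5 of 9 for macrophage-like, 4 of 9 for monocyte-like and 8 of 8 for endothelial-like cells. In monocyte-like cells the median tissue library had Ighm in 21.2% and Igkc in 18.6% of cells, with 0.333 to 11.5 Igkc UMIs per Ighm UMI. The Igkc share of tissue T cell-like cells ran from 3.88% to 93.6% by library (median 16.2%). The highest was wt replicate 4, the library with the most plasma cell-like cells (419). There, 55.6% of heavy chain UMIs in T cell-like cells were Ighg2c, and 91.7% in plasma cell-like cells. The part that free plasma cell RNA has in these shares was not tested.

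**Figure D4:**
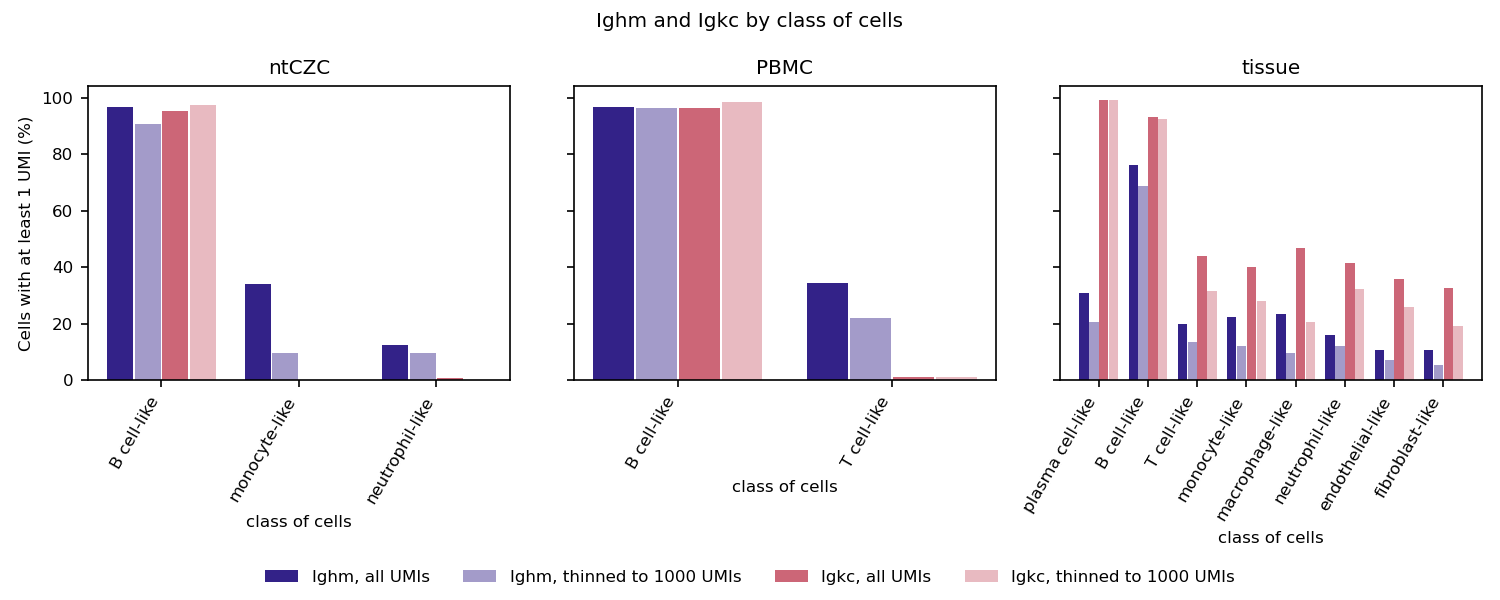
Percent of cells with at least 1 UMI of Ighm or of Igkc by cell class and library kind, as deposited and after thinning each cell to 1000 UMIs. The ntCZC monocyte-like cells and PBMC T cell-like cells have Ighm and almost no Igkc (0.152% and 1.15%), whereas the pooled tissue classes have more Igkc than Ighm, an order that held in 4 of 9 libraries for monocyte-like cells.

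Genotype was compared within each kind, the contrast the study was built for. None of the members passed the threshold in any of the 5 genotype contrasts over all barcodes. In ntCZC 5 members (Ighm, Ighd, Igkc, Iglc2 and Iglc3) passed the filter, and 0 were called for null versus het, null versus wt or het versus wt by edgeR's quasi-likelihood test, where 0%, 0% and 0.107% of 9379 genes were called. At an unadjusted p under 0.05 the counts were 4, 0 and 2 of 5, where 686, 360 and 741 of the 9379 genes were, and DESeq2 called 0 members in each. Without ntCZC het replicate 3 the 4 members for null versus het became 0. That library was the only female among the het libraries. Null replicate 2 was the only male among the null libraries, and all wt libraries were male. Genotype and sex were thus largely confounded in ntCZC, and the sex covariate can separate them only in part. Igkc stood at 133 and 297 CPM in the wt, 250 to 6979 CPM (median 3650) in the het and 373 to 1508 CPM (median 1005) in the null libraries. The null libraries lay inside the het range, and 1 wt library lay below every het library. The log2 difference of null over het was -2.50 ± 0.93 for Igkc (adjusted p = 0.585) and -2.13 ± 0.64 for Ighm (adjusted p = 0.485), and that of het over wt was 4.74 ± 1.93 for Iglc3 (adjusted p = 0.587), by edgeR. The wt side is weak: wt replicate 3 held 77 barcodes with a median of 325 UMIs. Of these, 11 passed the filter on barcodes and 2 were B cell-like. All ntCZC libraries with 10 or more calls had 100% Ighm or Ighd, a saturated measure that can show no difference between null and het.

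In tissue all 10 members were tested and 0 were called for null versus wt or het versus wt by edgeR's quasi-likelihood test, where 0.0112% and 0% of 17863 genes were called. At an unadjusted p under 0.05 the counts were 1 and 1 of 10, where 1621 and 1367 of the 17863 genes were. DESeq2 called 0 and 1 member (Ighg2c for het versus wt) among 342 and 73 genes. Jchain stood at 104 to 580 CPM (median 391) in wt, at 96.1 and 156 CPM in het and at 49.0 and 165 CPM in null libraries, and null over wt was -1.99 ± 0.79 on the log2 scale (adjusted p = 0.526, edgeR). Ighg2c stood at 0.225 to 3371 CPM in wt, 0 and 0.118 CPM in het and 0.453 and 92.6 CPM in null libraries. Of the 4 het and null libraries, 2 lay below the wt range for each gene and 2 within it. The share with Ighm or Ighd dominant was 90.1% ± 8.21 (SD, n = 2) in null and 77.9% ± 17.3 (SD, n = 5) in wt libraries, a difference of 12.2 points with an exact permutation p = 0.381 (smallest possible 0.0476). Without null replicate 3, the library with Y-linked counts, it was 18.0 points, with a single null library and a smallest possible exact permutation p of 0.167. The fit without it called 0 members for null versus wt, with that 1 null library assumed to vary like the others. Without wt replicate 4 the share difference was 6.24 points.

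Between females and males of the tissue libraries 0 of 10 members were called by edgeR's quasi-likelihood test where 0.0112% of genes were, with 2 of 10 at an unadjusted p under 0.05, where 1268 of the 17863 genes were, and 0 called by DESeq2. Those 2 members differed, female over male, by 5.54 ± 2.05 for Ighg2c and 1.16 ± 0.41 for Ighm on the log2 scale (adjusted p = 0.632 for both, edgeR). Without wt replicate 4, a female with 3371 CPM of Ighg2c, the difference of Ighg2c was 1.98, and 1 member had an unadjusted p under 0.05. Sex and the organ pool, uterus or epididymis, cannot be told apart. In tissue B cell-like cells 0 of 10 members were called for null versus wt and 0 for het versus wt by edgeR's quasi-likelihood test, where 0.25% and 0% of 7998 genes were called, 2 and 2 members and 869 and 739 genes had an unadjusted p under 0.05, and DESeq2 called 0 and 0. The difference of Ighg2c, null over wt, was -3.68 ± 1.30 (adjusted p = 0.323, edgeR). Its wt side leans on wt replicate 4, with 1580 CPM in these cells where the next wt library had 32.4 CPM. Without null replicate 3, 0 members were called for null versus wt there, with null then 1 library that is assumed to vary like the other groups.

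Genes around the antibody were read from 3 lists. Of 16 genes for immunoglobulin receptors and transport, 13 were tested over all barcodes, of which 8 were higher and 1 lower in ntCZC, where 27.5% and 38.5% of all genes were (median log2 difference 1.43, against -0.13 over all genes). The Fcγ receptor genes Fcgr3 (2.29 ± 0.27) and Fcgr4 (1.77 ± 0.33) and Fcer1g (2.19 ± 0.34), the signalling γ chain they share, were higher, and Pigr, which carries polymeric IgA and IgM across epithelium, was lower (-4.84 ± 0.64). The first 3 are genes of myeloid cells. Of 14 plasma cell secretory genes, 13 were tested, with 0 higher and 5 lower (median -0.31), a share equal to the 38.5% of all genes called lower: Sdc1, a plasma cell and epithelial surface proteoglycan (-3.05 ± 0.37), Derl3 (-1.92 ± 0.72) and Fkbp11 (-1.81 ± 0.55) of the endoplasmic reticulum, and Pou2af1, a coactivator of immunoglobulin transcription (-1.44 ± 0.52), were among them. Of 10 class switching and germinal centre genes 6 were tested, and only Bcl6 was called (1.03 ± 0.25).

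In B cell-like cells, 11 receptor genes were tested and 4 were higher in ntCZC with 0 lower, where 16.5% and 21.6% of all genes were (median 0.71, against -0.08 over all genes): Cd79a (1.62 ± 0.18) and Cd79b (1.30 ± 0.18), the signalling subunits of the B cell receptor, the IgM receptor gene Fcmr (1.08 ± 0.23) and Fcrla (0.93 ± 0.21). Cd79a stood at 2678 to 5344 CPM in ntCZC and 886 to 1724 CPM in tissue libraries, without overlap. Cd79a, Cd79b and Fcmr were also markers by which these clusters were named. Of 10 secretory genes tested 4 were lower and 0 higher (median -0.30), against the same shares of all genes: Pou2af1 (-1.75 ± 0.21), Edem1 (-1.34 ± 0.38), and the plasma cell transcription factor genes Xbp1 (-1.25 ± 0.38) and Irf4 (-1.18 ± 0.30). Of the switching genes 2 were tested, Bcl6 (-1.73 ± 0.46) and the DNA repair gene Apex1 (1.00 ± 0.33), and both were called. Bcl6 thus had opposite signs in B cell-like cells and over all barcodes. In the genotype and sex contrasts 0 genes of these lists were called except Pigr in tissue B cell-like cells, null over wt (1.91 ± 0.35, adjusted p = 0.0299, edgeR). That call was lost without null replicate 3 (1.98, adjusted p = 0.278), null replicate 2 (1.78, adjusted p = 0.327), wt replicate 4 (1.91, adjusted p = 0.163) or wt replicate 5 (1.92, adjusted p = 0.0562), and without the sex covariate (1.75, adjusted p = 0.712).

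Over the 40 clusters, which share libraries, the genes most like Ighd in log2(CPM + 1) were Fcer2a (r = 0.94), Ms4a1 (0.91) and Pax5 (0.91), all B cell genes. Those most like Jchain were Mzb1 (r = 0.85), Oosp1 (0.77) and Prg2 (0.76), and those most like Igkc were Mzb1 (0.90), Oosp1 (0.83) and the agouti gene a (0.79). Ighd therefore sat with B cell identity genes, and Igkc and Jchain with Mzb1, a chaperone of antibody secretion.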

How the data were processed

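The members and the gene lists were chosen with earlier results of these data known. The authors deposited 1 matrix of raw UMI counts per library, for 31053 genes (mm10, GENCODE vM21 names used here for coordinates). The submitters' processing notes name Cell Ranger 2.1.1 and Seurat, while the matrix headers name Cell Ranger 3.0.2. Whether reads of near-identical genes were split is not given in the sources used here. Groups were taken from the labels, 2 tissue libraries with contradictory labels entered no comparison, and 0 columns had an unknown sample.

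Barcodes were kept when they had 200 or more genes and no more than 25% of UMIs from mitochondrial genes. Doublets were called with the Scrublet of scanpy 1.11.5 in the tissue libraries only, and 15088 were removed. Their share was set beforehand at 0.8% for each 1000 barcodes of a library, at most 25%, taking the highest scores. The ntCZC and PBMC libraries were not searched for doublets. The remaining barcodes were clustered by Leiden (resolution 1, 2000 variable genes, 50 principal components, 15 neighbours) without immunoglobulin genes. Clusters were named from marker genes. UMI counts were summed per library and tested with edgeR 4.0.16 (quasi-likelihood, TMM, R 4.3.3) with sex as a covariate, where it could be fitted, and Benjamini-Hochberg adjustment, called at 0.05. DESeq2 1.42.0, other scalings, filters, covariates, libraries and clusterings were alternatives. Shares per library were compared by exact permutation tests. The scripts were tested on simulated data. Named genes were the 10 members, Ighg3, Ighe and Iglc1, up to 4 called genes with the lowest adjusted p of each list, and the 3 genes most alike to Ighd, Igkc and Jchain. Calls of class and light chain needed 2 UMIs, and a Jchain-rich barcode 20, a minimum chosen after seeing the data. Library depth ran from 161541 to 139793927 UMIs. Intervals and floors cover counting error only.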

Additional observations from a re-analysis of the deposited data

Results flagged for a closer look

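Of 47 sets of 4 to 10 libraries tested for a library far from the others by the gap to its nearest neighbour (Dixon's criterion), 13 had one. The usual chance rate of about 1 in 20 assumes normally distributed values, while these were CPM without a log. A set where a single library has any UMI of the gene is always flagged, as for Ighg2b in ntCZC null replicate 1. The 13 flags therefore cannot be compared with that rate.

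Over all barcodes, tissue wt replicate 4 stood apart from the other wt tissue libraries for Ighd (134 CPM, next 34.1 CPM), Ighg2c (3370 CPM, next 119 CPM) and Igkc (13700 CPM, next 4021 CPM). In its B cell-like cells Ighg2c stood at 1580 CPM, where the next wt library had 32.4 CPM. Plasma cell-like cells held 68.2% of the Ighg2c and 64.3% of the Igkc UMIs of that library.

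Among the het libraries, ntCZC het replicate 3 stood apart over all barcodes for Jchain (159 CPM, next 4.20 CPM), Igha (6.27 CPM, next 1.05 CPM) and Ighg2b (1.14 CPM, all others 0). In B cell-like cells it did so for Jchain (267 CPM, next 17.2 CPM) and Ighg2b (1.93 CPM, all others 0). In ntCZC het replicate 1, Iglc3 in B cell-like cells reached 7600 CPM (next 1038 CPM), and 1 barcode held 28.1% of the Iglc3 UMIs of the library.

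Among the ntCZC null libraries, null replicate 1 had 2.85 CPM of Ighg2b and 3.57 CPM of Ighg2c where the others had 0, which is 4 and 5 UMIs. Among the tissue wt libraries, Ighm in B cell-like cells of replicate 5 reached 10300 CPM over 19 cells, where the next wt library had 3384 CPM.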

How the results depend on the processing

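The number of members called stayed within 1.5 times its main value under most alternatives, and no called member changed sign. Differences that were not called could, such as that of Ighd for ntCZC versus tissue over all barcodes (0.10, and -0.12 with RLE scaling). Igkc was called there (-1.44) without ntCZC het replicate 1. For ntCZC versus tissue over all barcodes it was 4 of 7 tested without the sex covariate, where Ighg1, Ighg2b and Ighg2c did not pass the filter, against 7 of 10. Without a filter on low counts, 2 members were called for ntCZC null versus het, and in tissue B cell-like cells 3 for null versus wt and 3 for het versus wt, against 0 each. DESeq2 called 1 member (Ighg2c) for tissue het versus wt. In tissue B cell-like cells without null replicate 2, 1 member (Igha) was called for null versus wt, so that null then rests on replicate 3 alone, the library with Y-linked counts, assumed to vary like the others. The causes of the other changes were not tested.

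Leaving out 1 library at a time gave 6 to 7 members called for ntCZC versus tissue both over all barcodes and in B cell-like cells, 0 to 1 for null versus wt in tissue B cell-like cells, and 0 in every other genotype or sex contrast. The difference in the IgM or IgD share ran from 11.3 to 16.9 points for ntCZC versus tissue, from 6.24 to 18.0 for tissue null versus wt and stayed at 0 for ntCZC null versus het. That in the λ share ran from 1.24 to 3.83.

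Deviations of same-numbered libraries from their group means correlated from -0.07 to 0.09 (6 pairs) for ntCZC and tissue. They correlated from -0.16 to 0.17 (8 pairs) within ntCZC and from -0.40 to -0.01 (5 pairs) within tissue. These values cannot show whether same-numbered libraries came from the same mouse. Of the 6 ntCZC and tissue pairs, wt replicates 1 and 3, het replicate 2 and null replicate 2 matched in sex and age. The pairs of het replicate 1 (610 and 551 days) and null replicate 3 (612 and 611 days) matched in sex alone. With the replicate number as a block, 7 members were called for ntCZC versus tissue over all barcodes (12 libraries) and 6 in B cell-like cells (8 libraries), and 0 in each genotype or sex contrast. The same libraries without the block gave 5 of 10 tested and 3 of 5 tested (8 were tested with the block in B cell-like cells), an alternative added after seeing the data. Leaving aside Jchain and the switched genes, whose calls carry no weight, the called members were Iglc2 and Iglc3 over all barcodes and Igkc, Iglc2 and Iglc3 in B cell-like cells, with and without the block. They were also called without any 1 library, except that over all barcodes Iglc3 was lost without ntCZC het replicate 1. With genotype as a covariate neither Iglc2 nor Iglc3 was called over all barcodes, and DESeq2 did not call Iglc3 in B cell-like cells. The blocked difference in the IgM or IgD share of ntCZC null versus het was 0, with every library at 100%.

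Counts of all genes called moved more. Over the alternatives they ran from 0 to 60, 0 to 64 and 0 to 106 for null versus het, null versus wt and het versus wt in ntCZC (main 0, 0 and 10), and from 0 to 342, 0 to 73 and 0 to 140 for null versus wt, het versus wt and sex in tissue (main 2, 0 and 2). In B cell-like cells they ran from 888 to 3492 for ntCZC versus tissue (main 2294), and from 0 to 275 and 0 to 146 for the tissue genotypes (main 20 and 0). Few UMIs in the ntCZC libraries limit all statements on genes at 0.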

Other observations

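The 2 tissue libraries without a group stood at 146 and 38.6 CPM of Igha, 0 and 17.0 CPM of Ighg1, 2.01 and 45.3 CPM of Ighg2b and 73.8 and 81.9 CPM of Jchain. Ighm or Ighd was the dominant heavy gene in 98.4% and 96.4% of their called barcodes. Of their 10 and 40 Jchain-rich barcodes, 5 and 34 were Ighm and 5 and 3 Igha.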
